A study of Mus musculus with 15 samples.

Results

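The 15 macrophage libraries of this series carry sample codes in 2 forms, with the digit after the letter B in 8 libraries and before it in 7, and the comparison of these forms is described here. Membership was read from the code in each sample title and no measured value was used. The after-B libraries were 3 of the ROBO4 knockout (ROBO4_KO), 3 of the VLDLR knockout (VLDLR_KO) and 2 of wild type (WT), and the before-B libraries were 2 ROBO4_KO, 2 VLDLR_KO and 3 WT. All were cultures of bone macrophages from C57BL6J mice that had been kept for 14 days with 20 ng/ml M-CSF, so genotype, strain, medium factor and culture time were labelled alike in both forms. What the position of the digit stands for is not stated in the labels, which tie it to no date, batch, animal or plate. They also do not say whether libraries of a group came from separate mice, so p-values measure the spread between these libraries only.

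M-CSF (CSF1) signals through its receptor Csf1r and drives myeloid precursors to proliferate, to survive and to mature into macrophages. Macrophages of this kind can keep dividing, can fuse into osteoclasts when RANK is engaged, and answer interferons, microbial ligands and lipid load with well-known gene programmes. In such cultures the balance between dividing and resting cells, and the tonic activity of these programmes, are known to vary with density, age of the culture and stimulation.

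The form of the code was the main axis of variation. The first principal component of log2 CPM (CPM, counts scaled to library totals adjusted by TMM) held 35.2% of the variance and put the 8 after-B libraries between -41.6 and -21.8 and the 7 before-B libraries between 30.6 and 51.1. The second component (29.1%) separated VLDLR_KO from the other genotypes. Within a genotype, correlations of log2 CPM were 0.904 to 0.962 between libraries of unlike form (18 pairs) and 0.971 to 0.993 between libraries of the same form (12 pairs). Depth was even, with 18132868 to 19005959 estimated counts per library over 16886 protein-coding genes. Reads of Y-linked genes were close to 0 in 3 libraries (VLDLR_KO after-B 1 and 2, and WT before-B 1), numbered by the digit in the code, so these libraries differ from the rest of their own groups. VLDLR_KO before-B 3 also stood apart, with the highest share of counts in its 10 most abundant genes (18.5%, the others 13.1% to 15.5%).

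**Figure D1:**
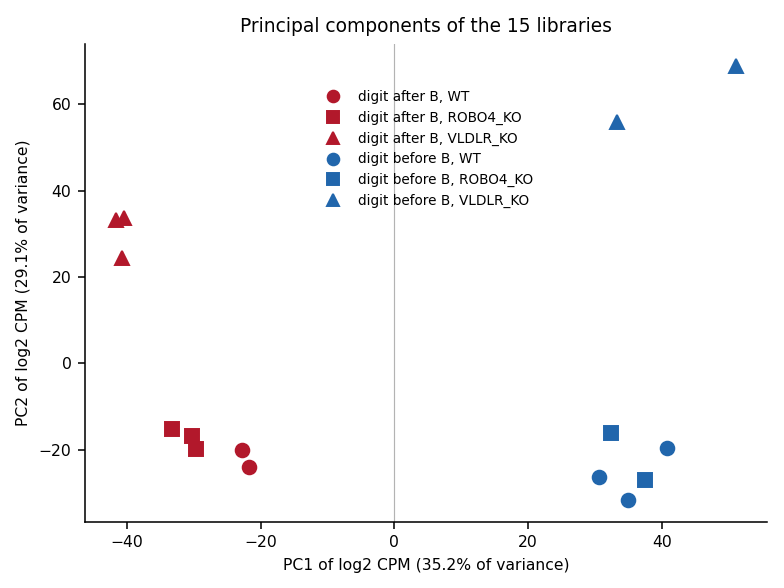
Position of each of the 15 libraries on the first 2 principal components of log2 CPM, in the units of the component scores, with colour for the form of the code and symbol for the genotype. The after-B libraries lie at -41.6 to -21.8 on PC1 and the before-B libraries at 30.6 to 51.1, while PC2 sets VLDLR_KO apart.

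With genotype in the model, 4441 of 11668 tested genes differed between the forms at an adjusted p under 0.05 (38.1%; edgeR quasi-likelihood test, Benjamini-Hochberg adjustment over all tested genes). Of these, 2191 were higher (18.8% of tested genes) and 2250 lower (19.3%) in after-B libraries, with a change of 2-fold or more in 700 of the higher and 467 of the lower genes. In 1347 genes (11.5%) the forms did not overlap, since every library of one lay above every library of the other, 744 being higher (6.38%) and 603 lower (5.17%). The difference pointed the same way in all 3 genotypes for 4204 of the 4441 called genes (94.7%). Calling over all genotypes favours such genes, so this share is a description only, with no share over all tested genes beside it. The shares of called and non-overlapping genes are the background against which the gene lists below are to be read. Log2 fold changes are after-B over before-B throughout, with standard errors (SE), and single values are CPM.

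Among genes without overlap and with a mean of at least 5 CPM in the higher form, Cmklr1 rose furthest. It encodes the receptor for the chemoattractant chemerin (chromosome 5, 113611132 to 113650474, minus strand, GRCm38.p6). It had 5.31, 8.19 and 15.8 CPM in after-B libraries (lowest, median and highest), against 0.0517, 0.217 and 0.572 CPM in before-B libraries, a log2 fold change of 5.50 (SE 0.33, adjusted p = 8.0e-08). The forms did not overlap for this gene, nor for the other genes named in this and the next paragraph, which were chosen on that criterion. F7 and F10, coagulation factors VII and X, came next. F7 had 21.8, 36.6 and 91.5 CPM in after-B libraries and 0.533, 0.978 and 1.59 CPM in before-B libraries (log2 fold change 5.42, SE 0.40). F10 had 22.6, 52.8 and 126 CPM in after-B libraries, against 0.959, 1.44 and 3.04 CPM in before-B libraries (5.16, SE 0.41). Every after-B library thus had more than 20 CPM of each, and no before-B library more than 3.04 CPM. Acp5, the tartrate-resistant acid phosphatase of osteoclasts, followed with 12.9, 15.8 and 51.1 CPM in after-B and 0.533, 1.01 and 1.51 CPM in before-B libraries. Ccr1, a receptor for CCL3 and CCL5, was the most abundant of these genes, at 107 ± 31.1 CPM in after-B (SD, n = 8) and 9.61 ± 4.08 CPM in before-B libraries (SD, n = 7; log2 fold change 3.62). The remaining 7 rose by 3.27 to 3.99. They were Ksr2, a scaffold of the Ras-MAPK cascade, Mmp8, the neutrophil collagenase, Siglecf, a sialic acid receptor of eosinophils and alveolar macrophages, Bst1, an ectoenzyme of NAD metabolism, Smpd3, a neutral sphingomyelinase, Mcf2l, a guanine nucleotide exchange factor, and Fgr, a Src-family kinase of myeloid cells.

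Cdkn2a, whose products restrain the cell cycle through the RB and p53 pathways, fell furthest among genes meeting the same limits (chromosome 4, 89274473 to 89294619, minus strand). It had 0, 0.296 and 0.444 CPM in after-B libraries and 2.75, 4.47 and 12.2 CPM in before-B libraries (log2 fold change -4.49, SE 0.37, adjusted p = 9.0e-07). Gpr162, an orphan receptor, had 4.61, 10.4 and 19.9 CPM in after-B libraries, against 148, 173 and 355 CPM in before-B libraries (-4.25, SE 0.30). Lsp1, an actin-binding protein of leukocytes, averaged 28.9 ± 17.6 CPM in after-B and 244 ± 60.5 CPM in before-B libraries (-3.22, SE 0.26), and the tetraspanin Cd81 averaged 30.7 ± 9.21 CPM in after-B and 276 ± 52.2 CPM in before-B libraries (-3.16, SE 0.20). All before-B libraries had more than 140 CPM of these 3 genes, and no after-B library reached 62 CPM. The other 8 fell by 2.74 to 3.67 on the log2 scale. Among them were the complement protein C3, the lipoprotein lipase cofactor Apoc2, the inhibitor of lysosomal cysteine proteases Cst7, the surface antigen Ly6a, the protease inhibitor Serpine2, the chloride channel protein Clic5, Nyap2 and Tmem176a. All 24 genes kept direction and call in each of the 29 alternative analyses that tested them. The exception in coverage was Cdkn2a, which was not tested in the knockouts alone. The 24 genes were chosen as the largest calls without overlap in these same libraries, so their stability is a description only.

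**Figure D2:**
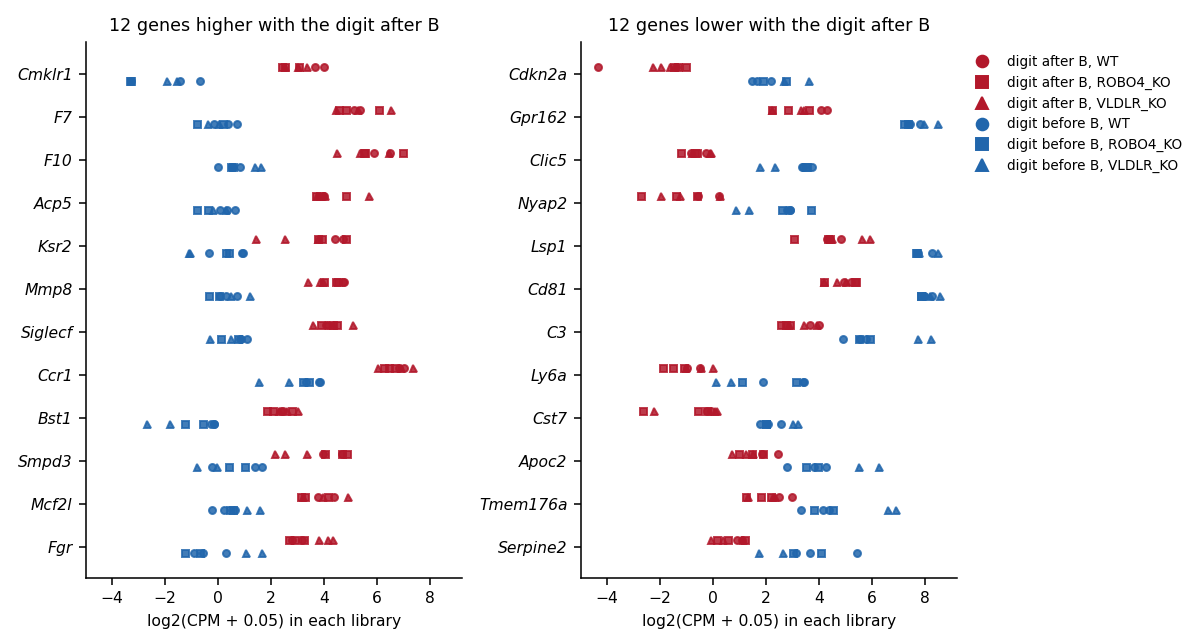
Level of the 24 genes with the largest differences, as log2(CPM + 0.05), 1 symbol per library, after-B libraries in red above before-B libraries in blue in each row. In every row the colours are separate, as for Cmklr1 (5.31 CPM or more in after-B libraries and 0.572 CPM or less in before-B libraries).

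Only 3 of the 24 genes were neighbours of one another. Mcf2l, F7 and F10 follow one another on chromosome 8 with gaps of 3.3 and 1.5 kb and all 3 were higher in after-B libraries, while the tested genes outside them, Atp11a (log2 fold change 0.11, adjusted p = 0.473) and Proz (0.04, adjusted p = 0.861), did not pass the test. Beside Ccr1, the chemokine receptor Ccr3 rose by 1.79 (adjusted p = 0.0016), and beside Bst1 the related NAD glycohydrolase Cd38 rose by 2.18 (adjusted p = 0.000776). Next to Cdkn2a, Cdkn2b, another inhibitor of cyclin-dependent kinases, fell by 2.29 (adjusted p = 0.000158), and Tmem176b fell with its neighbour Tmem176a by 2.53 (adjusted p = 0.000214). Of the 24 flanking positions of the 12 genes that rose, 8 held a gene called higher and 5 a gene called lower, and 4 of the 8 were the members of the chromosome 8 trio themselves. Of the 24 positions beside the 12 genes that fell, 7 held a gene called lower and 3 a gene called higher. The largest of these opposite differences were -2.56 beside Cmklr1 and -2.0 beside Mmp8. Over all adjacent pairs of tested genes, 25.7% of the genes after one called higher were also called higher, and 27.0% after one called lower were also called lower. Gpr162 overlaps P3h3, and Tmem176a overlaps Tmem176b. Use of strand in counting is not given in the sources used here, so reads in those overlaps cannot be told apart. The flanking genes were set by position, after the values of the 24 genes had been seen. Of them, Ccr3, Cd38, Cdkn2b and Tmem176b were named because they moved with the gene beside them.

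Genes of cell division were higher in after-B libraries. All 24 tested genes of the mitotic list, which covers cyclins, mitotic kinases and spindle proteins, were called higher in after-B libraries (background 18.8%), with a median log2 fold change of 2.07 against -0.02 for all tested genes, and in 20 of them the forms did not overlap (background 6.38%). Bub1b, a kinase of the spindle checkpoint, had 16.8, 33.0 and 50.3 CPM in after-B libraries, against 4.64, 8.95 and 11.3 CPM in before-B libraries (2.06, SE 0.27, adjusted p = 4.9e-05). Plk1, a kinase that drives mitotic entry, had 9.33, 22.7 and 38.2 CPM in after-B and 3.62, 5.28 and 7.54 CPM in before-B libraries (2.17). Ccnb1, which encodes cyclin B, had 13.9, 27.2 and 39.1 CPM in after-B and 3.21, 7.46 and 10.1 CPM in before-B libraries (2.0). The after-B libraries spread widely among themselves but stayed above all before-B libraries for each of these 3 genes. On a scale where each gene is centred on its mean over the 15 libraries, the mean log2 level of the list was -0.19 to 1.65 in after-B libraries and -1.89 to -0.48 in before-B libraries. ROBO4_KO after-B 1 was the lowest of the first group and both VLDLR_KO libraries were the lowest of the second. The median difference of the 24 genes was 2.18 within ROBO4_KO, 2.87 within VLDLR_KO and 1.17 within WT, and 23, 24 and 6 of them were called within those genotypes. Over all 11668 tested genes, 962, 2718 and 951 were called higher within those genotypes. No member passed the test of an interaction between form and genotype (10.9% of all tested genes did), and 23 or 24 were called under every alternative.

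Genes of DNA replication moved alongside. Of 25 tested members, 23 were called higher in after-B libraries (background 18.8%) and none lower, with a median of 1.41. The genotypes were less alike than for the mitotic list. The median was 1.43 within ROBO4_KO, 2.49 within VLDLR_KO and 0.68 within WT, with 18, 25 and 2 members called higher there. Over all 11668 tested genes, 962, 2718 and 951 were called higher within those genotypes, so the 2 of 25 within WT were close to the share over all genes. The interaction test was passed by 5 members (10.9% of all tested genes did). Fen1, the flap endonuclease of lagging-strand synthesis, had 41.2, 62.3 and 94.3 CPM in after-B and 28.3, 29.1 and 29.2 CPM in before-B libraries (1.09, SE 0.15, adjusted p = 8.8e-05). Before-B libraries were nearly equal for this gene, while after-B libraries varied more than 2-fold. Mcm10, a replication initiation factor, had 7.94, 20.5 and 40.2 CPM in after-B and 1.90, 4.42 and 6.05 CPM in before-B libraries (2.39, SE 0.39), and Rrm2, the small subunit of ribonucleotide reductase, had 24.9, 62.6 and 107 CPM in after-B and 3.57, 11.5 and 17.3 CPM in before-B libraries (2.62, SE 0.45). The tubulin genes Tuba1b (0.97) and Tubb5 (0.95) also rose without overlap. The replication-dependent histones did not follow as a list, with 2 of 12 tested members higher, 2 lower and a median of -0.51. Their median was -0.39 within ROBO4_KO, -1.40 within VLDLR_KO and 0.82 within WT. In that order, 2, 2 and 4 members were called higher and 1, 8 and 0 lower. Over all 11668 tested genes, 1020, 2936 and 839 were called lower there. The interaction test was passed by 7 of the 12 (10.9% of all tested genes did). Histone counts depend on how far a library preparation captures transcripts without a poly(A) tail, and the part of this in the histone values was not tested.

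**Figure D3:**
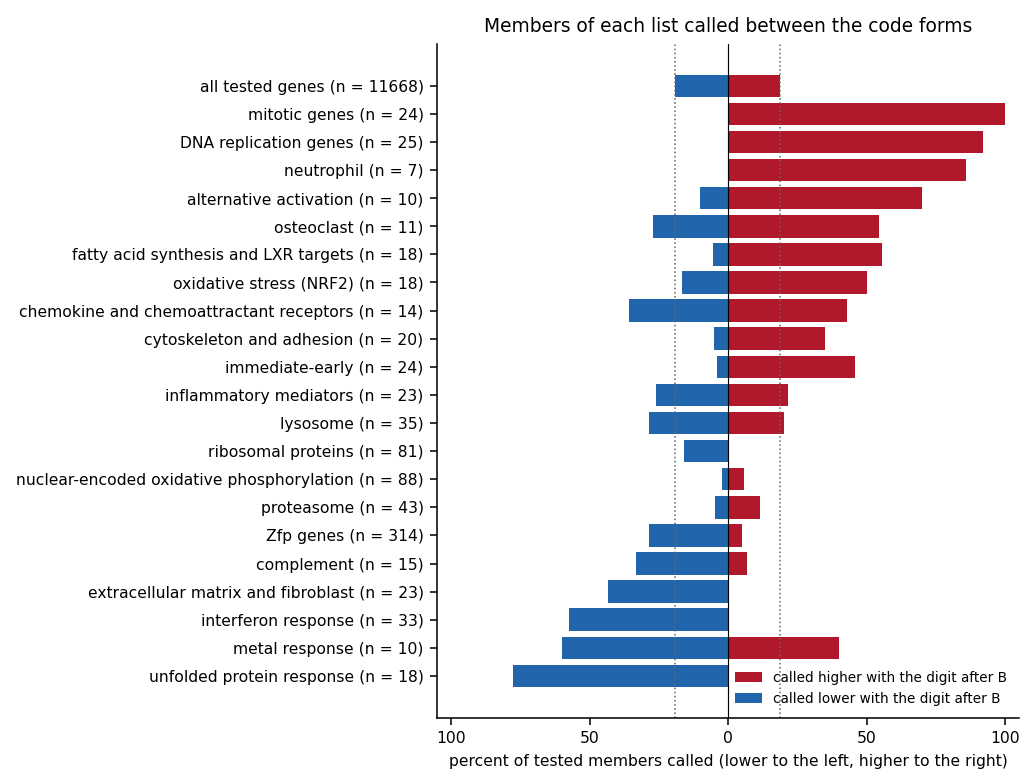
Share of the tested members of each gene list, in percent, called higher (red, to the right) or lower (blue, to the left) in after-B against before-B libraries, with the number tested in brackets and dotted lines at the shares over all genes (18.8% and 19.3%). Mitotic genes are called higher in 24 of 24 cases, and unfolded protein response genes lower in 14 of 18.

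**Figure D4:**
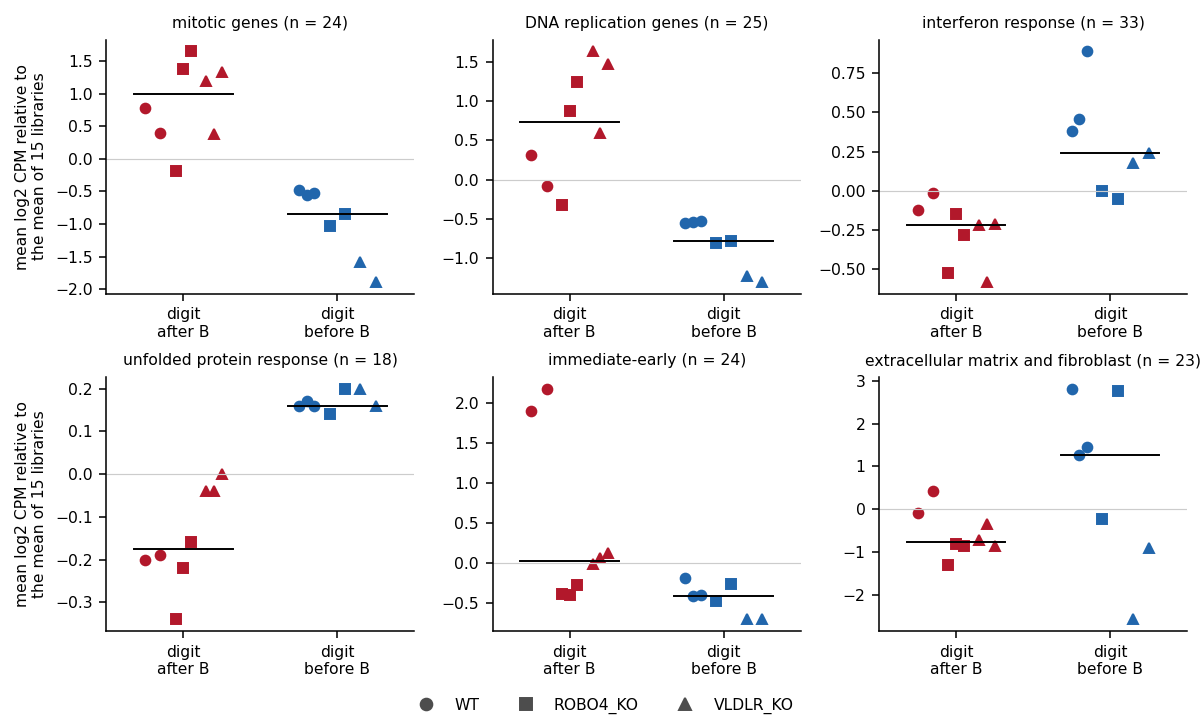
Mean log2 CPM of 6 lists in each library, each gene centred on its mean over the 15 libraries, after-B on the left and before-B on the right, with symbols for genotypes and a line at the median of a form. The forms separate for mitotic, replication and unfolded protein response genes, nearly so for interferon response genes, and overlap for the other 2 lists, where WT after-B libraries (immediate-early) or single before-B libraries (extracellular matrix) are far from the rest.

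Promoters of genes in these lists are printed to show the sequence elements known to mark them. RefSeq promoter windows (GRCm38.p6, 250 bases before to 50 after the first listed start) were matched by symbol to 21 of the 24 mitotic, 21 of the 25 replication and 26 of the 33 interferon response genes tested. For the mitotic list the element CHR (TTTGAA or TTCAAA) was present in 16 of 21 windows (76.2%), against 12% of 9291 windows of tested genes, and a CCAAT box (CCAAT or ATTGG) in 18 of 21 (85.7%), against 39.3%. An E2F site (TTTCCCGC or TTTGGCGC, or GCGGGAAA or GCGCCAAA on the other strand) was in 7 of 21 replication windows (33.3%), against 3.2%. The interferon-stimulated response element (GAAA, 2 bases of any kind and GAAA, on either strand) was in 15 of 26 interferon response windows (57.7%), against 3.2%. Over all called genes, CHR was in 16% of windows of genes higher and 10% of windows of genes lower in after-B libraries, E2F in 4.6% and 2.0%, and the interferon element in 2.8% and 3.7%. A match says only that the letters are present. Shown are the 2 members of each list with the lowest adjusted p that hold every element searched for that list, 5′ to 3′ on the strand of the gene, with matched elements in capitals.
Bub1b (chr2:118597961-118598260, plus strand): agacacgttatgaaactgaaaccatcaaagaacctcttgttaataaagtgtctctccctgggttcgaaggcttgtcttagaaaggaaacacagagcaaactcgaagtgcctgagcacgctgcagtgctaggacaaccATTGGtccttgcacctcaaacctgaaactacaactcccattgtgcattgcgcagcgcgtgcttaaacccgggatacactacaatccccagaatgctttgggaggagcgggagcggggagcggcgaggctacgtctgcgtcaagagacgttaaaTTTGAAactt
Plk1 (chr7:122159185-122159484, plus strand): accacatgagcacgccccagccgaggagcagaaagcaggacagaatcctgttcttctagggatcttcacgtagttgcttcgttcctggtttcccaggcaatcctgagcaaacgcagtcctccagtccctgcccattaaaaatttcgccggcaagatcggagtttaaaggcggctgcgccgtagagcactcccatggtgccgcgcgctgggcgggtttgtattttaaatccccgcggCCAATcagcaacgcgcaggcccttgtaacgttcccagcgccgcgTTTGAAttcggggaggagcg
Mcm7 (chr5:138171834-138172133, minus strand): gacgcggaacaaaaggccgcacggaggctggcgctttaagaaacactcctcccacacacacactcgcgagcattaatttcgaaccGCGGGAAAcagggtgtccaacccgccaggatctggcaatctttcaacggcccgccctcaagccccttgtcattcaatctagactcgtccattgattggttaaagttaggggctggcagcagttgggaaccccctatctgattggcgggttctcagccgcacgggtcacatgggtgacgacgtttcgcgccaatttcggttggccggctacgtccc
Cdc6 (chr11:98907901-98908200, plus strand): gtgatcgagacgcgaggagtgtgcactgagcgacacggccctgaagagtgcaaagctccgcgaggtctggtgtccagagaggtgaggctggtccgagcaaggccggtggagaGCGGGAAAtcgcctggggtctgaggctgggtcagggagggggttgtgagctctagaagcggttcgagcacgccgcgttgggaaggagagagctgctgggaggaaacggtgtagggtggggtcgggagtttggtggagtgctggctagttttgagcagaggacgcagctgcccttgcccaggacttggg
Ifit1 (chr19:34640639-34640938, plus strand): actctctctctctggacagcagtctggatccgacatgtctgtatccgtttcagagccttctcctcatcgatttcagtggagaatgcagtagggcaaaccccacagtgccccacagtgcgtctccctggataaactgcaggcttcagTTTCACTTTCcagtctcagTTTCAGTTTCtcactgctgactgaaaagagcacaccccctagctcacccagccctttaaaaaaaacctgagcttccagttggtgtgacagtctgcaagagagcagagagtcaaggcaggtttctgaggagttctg
Oas3 (chr5:120777610-120777909, minus strand): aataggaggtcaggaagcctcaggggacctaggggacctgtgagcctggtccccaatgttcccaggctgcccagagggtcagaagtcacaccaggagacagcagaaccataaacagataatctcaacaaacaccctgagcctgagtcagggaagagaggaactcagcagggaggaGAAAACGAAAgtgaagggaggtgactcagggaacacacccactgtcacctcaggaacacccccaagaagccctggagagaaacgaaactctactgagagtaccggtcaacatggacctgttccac

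Interferon response genes were lower in after-B libraries. Of 33 tested members 19 were called lower (background 19.3%) and none higher, with a median of -0.42. Oas2, an oligoadenylate synthetase that activates RNase L, had 7.88, 16.5 and 21.1 CPM in after-B libraries, against 43.1, 58.1 and 72.8 CPM in before-B libraries (-1.77, SE 0.16, adjusted p = 2.5e-06). Ifit1, which binds viral RNA and carries a pair of response elements in the window printed above, had 2.35, 3.59 and 4.79 CPM in after-B and 5.12, 9.20 and 21.7 CPM in before-B libraries (-1.39, SE 0.21). Rtp4 (-1.51) and Irf9 (-0.35), a subunit of the factor that binds these elements, also separated the forms. The list level was -0.58 to -0.01 in after-B libraries and -0.05 to 0.89 in before-B libraries, with a small overlap between WT after-B 3 (-0.01) and ROBO4_KO before-B 2 (-0.05). The medians were -0.29 within ROBO4_KO, -0.48 within VLDLR_KO and -0.66 within WT. In that order 3, 15 and 11 of the 33 members were called lower, and 1 was called higher in each genotype. Over all 11668 tested genes, 1020, 2936 and 839 were called lower there, so the count within ROBO4_KO was close to the share over all genes. Under the alternatives to the main test, 14 to 20 members were called lower.

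Genes of protein folding in the endoplasmic reticulum differed by less. Of 18 tested genes of the unfolded protein response 14 were called lower in after-B libraries and none higher, with a median of -0.27. Xbp1, a transcription factor of this response, had 120.3, 132 and 149 CPM in after-B and 186, 202 and 236 CPM in before-B libraries (-0.62, SE 0.05, adjusted p = 9.0e-07). Hspa5, the chaperone BiP, had 534, 648 and 742 CPM in after-B libraries, against 911, 969.9 and 1031 CPM in before-B libraries (-0.59, SE 0.06), and Herpud1, a component of protein degradation at the reticulum, had 17.0, 23.1 and 30.4 CPM in after-B and 38.0, 41.6 and 64.0 CPM in before-B libraries (-0.93). None of these 3 overlapped between forms, and the list level was -0.34 to 0.00 in after-B and 0.14 to 0.20 in before-B libraries. Without both WT after-B libraries 8 were called, and without WT after-B 1 alone 9, at medians of -0.24 and -0.25. In the list of the amino acid and integrated stress response 7 of 21 fell and 2 rose. The genes that fell included Ddit3 (-0.59) and Atf4 (-0.29), and those that rose were the cystine transporter Slc7a11 (1.56) and the serine synthesis enzyme Psat1 (1.29).

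Genes of osteoclasts and of extracellular proteolysis were split. Of 11 tested osteoclast genes 6 were higher and 3 lower in after-B libraries. Besides Acp5, the collagen-degrading protease Ctsk had 31.8, 49.6 and 159.9 CPM in after-B and 4.56, 10.2 and 16.04 CPM in before-B libraries (2.67, SE 0.43, adjusted p = 0.00026). The fusion receptor Dcstamp (1.5), the RANK gene Tnfrsf11a (0.63) and Mmp9 (2.07) rose too, whereas Nfatc1, the master regulator of osteoclast formation, was slightly lower (-0.25, adjusted p = 0.012), and so was the chloride transporter Clcn7 (-0.39). Among lysosomal genes, 7 of 35 rose and 10 fell (background 18.8% and 19.3%). Ctsl, a cysteine protease, rose most clearly, with 1674, 2684 and 6744 CPM in after-B libraries and 516, 823 and 1014 CPM in before-B libraries (1.92, SE 0.18). Lgmn (0.80) and the ganglioside activator Gm2a (0.83) also rose, and Hexa (-0.62), a subunit of a hexosaminidase, fell. Mmp12, the macrophage elastase, reached 3086, 5927 and 9455 CPM in after-B libraries, against 805, 2548 and 2876 CPM in before-B libraries (1.72).

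Receptors for chemoattractants and adhesion moved in both directions. Of 14 tested chemoattractant receptors 6 rose and 5 fell. Besides Cmklr1, Ccr1 and Ccr3, the monocyte receptor Ccr2 rose, though at low levels, with 2.91, 3.88 and 5.47 CPM in after-B and 0.320, 0.598 and 1.14 CPM in before-B libraries (2.56, adjusted p = 4.7e-06). S1pr1, a receptor for sphingosine phosphate, fell (-1.16), as did Cxcr3 (-1.18), Cxcr4 (-1.84) and the fractalkine receptor Cx3cr1 (-1.86). Of 20 tested genes of cytoskeleton and adhesion 7 rose and 1 fell. The integrin chains Itgb2 (1.15), Itgam (1.08) and Itgax (2.28) were higher and Itga5 (-0.63) was lower. Itgax had 488.5, 899 and 2363 CPM in after-B libraries, against 67.3, 104 and 949.8 CPM in before-B libraries, and the ranges overlapped because the VLDLR_KO before-B libraries were high. Of 20 Toll-like and cytosolic sensor genes 5 rose and 5 fell (background 18.8% and 19.3%), with a median of 0.02. Tlr1 had 67.2, 88.2 and 100.5 CPM in after-B and 28.0, 31.0 and 34.6 CPM in before-B libraries (1.46, adjusted p = 7.9e-08), and Tlr9 was lower (-1.32).

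Genes of lipid metabolism, redox defence and metal handling differed in number and direction. Of 18 tested genes of fatty acid synthesis and LXR targets 10 rose and 1 fell, with a median of 0.40. The desaturase Scd2 had 78.6, 100.4 and 143 CPM in after-B libraries, against 2.38, 18.4 and 67.4 CPM in before-B libraries (2.83, SE 0.48). The exception was Mylip, an LXR target that degrades lipoprotein receptors (-0.97). Of 14 genes of lipid uptake and storage 6 rose and 4 fell, with a median of 0.16. Cd36, a scavenger receptor of this list for oxidised lipoproteins, had 2206, 3919 and 5223 CPM in after-B and 66.6, 1185 and 1850 CPM in before-B libraries (2.55, SE 0.47), with the lowest values in the VLDLR_KO before-B libraries. Cholesterol synthesis, in contrast, held 4 higher and 1 lower of 25, and 18 of the 25 passed the interaction test (10.9% of all tested genes did). The median difference of the 25 was 0.80 within VLDLR_KO, -0.10 within ROBO4_KO and -0.08 within WT. NRF2 targets rose in 9 of 18 cases and fell in 3. The glutathione synthesis subunit Gclm (0.87), sulfiredoxin Srxn1 (0.95), thioredoxin reductase Txnrd1 (0.80) and the glutathione transferase Gstp1 (2.30) rose. Of 10 metal response genes 4 rose and 6 fell, with a median of -0.48. Metallothioneins Mt1 (-0.61) and Mt2 (-1.53) and the iron exporter Slc40a1 (-1.16) fell.

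Of 15 tested complement genes 5 fell and 1 rose, with a median of -0.29, and 5 passed the interaction test (10.9% of all tested genes did). C3 had 5.83, 9.17 and 15.97 CPM in after-B libraries, against 29.9, 54.4 and 300.8 CPM in before-B libraries (-3.06, SE 0.37), and the 2 highest before-B values, 300.8 and 211.5 CPM, were those of VLDLR_KO. C1qb (-1.06) and C1qc (-1.13), chains of the first complement component, fell without overlap. Gas6, the ligand of the clearance receptors MERTK and AXL, had 159.7, 306 and 362 CPM in after-B and 749.8, 858 and 1121 CPM in before-B libraries (-1.61, SE 0.15, adjusted p = 2.9e-06). Among angiogenic factors 7 of 25 rose and 8 fell (background 18.8% and 19.3%). Pdgfb, a mitogen for pericytes, had 49.7, 58.7 and 82.9 CPM in after-B libraries, against 119.7, 133 and 150.4 CPM in before-B libraries (-1.15, SE 0.07, adjusted p = 9.6e-08), and Vegfb (-0.98) and Igf1 (-0.43) fell, whereas the urokinase receptor Plaur rose (0.86). Klf9, a glucocorticoid-responsive factor, had 8.56, 14.8 and 28.6 CPM in after-B and 1.49, 2.40 and 4.19 CPM in before-B libraries (2.64), in a list of 9 of which 6 rose and 1 fell.

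Of 21 tested genes of macrophage identity 4 were higher and 1 lower (background 18.8% and 19.3%), with a median of -0.04. Within VLDLR_KO 4 were called higher and 11 lower (2718 and 2936 of 11668 over all tested genes). Within WT 5 were higher and 1 lower (951 and 839), and within ROBO4_KO 2 and 1 (962 and 1020). The medians were -0.37, 0.24 and 0.06 in that order. The interaction test was passed by 5 of the 21 (10.9% of all tested genes did). The summed level of the 21 genes was 22060 to 28468 CPM in after-B and 18136 to 43499 CPM in before-B libraries. Genes of neutrophil granules were few in counts but uneven. Of 16 listed 7 passed the filter on low counts, and 6 of these were called higher. A rare gene passes that filter through the form in which it is high, so the count is a description only. S100a9 had 2 to 81 counts in every after-B library and 0 in all before-B libraries, at least 9.91-fold higher against a floor of 3 counts per library. Ngp had 275 counts over the after-B libraries and 1 over the before-B libraries, a ratio of 242 with an exact 95% interval of 43.1 to 9600. Chil3, a chitinase-like lectin whose reads may be shared with its close paralogs, had 314 counts over the after-B libraries and 0 in all before-B libraries, at least 13.2-fold higher. The summed level of the neutrophil list was 69.5 to 123.3 CPM in after-B and 52.6 to 190.3 CPM in before-B libraries. Its most abundant member Csf3r, which macrophages also express, did not pass the overall test (-0.46, adjusted p = 0.17), with a difference of -1.69 within VLDLR_KO, -0.15 within ROBO4_KO and 0.49 within WT (adjusted p of the interaction 2.2e-05). Fewer cells of a type and less RNA per cell cannot be told apart in such bulk libraries. Pf4, a platelet chemokine also made by macrophages, had 23.5, 32.5 and 43.6 CPM in after-B and 3.14, 5.74 and 6.52 CPM in before-B libraries (2.64). Their part in the results was not tested.

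Extracellular matrix and fibroblast genes varied widely between single libraries. Of 23 tested, 10 were called lower in after-B libraries and none higher, with a median of -1.69. Bgn, the proteoglycan biglycan, had 4.11, 7.20 and 13.6 CPM in after-B libraries and 4.51, 40.9 and 122 CPM in before-B libraries (-2.23, SE 0.53, adjusted p = 0.0044). Its before-B values were 20.9 and 117 CPM in ROBO4_KO, 4.51 and 12.1 CPM in VLDLR_KO, and 122, 40.9 and 58.3 CPM in WT, so the ranges overlapped. The summed list was 43.2 to 116 CPM in after-B and 19.2 to 706 CPM in before-B libraries. Their part in other results was not tested. Without ROBO4_KO before-B 2 the median was -0.72 and 4 members were called. Leaving out WT after-B 1 gave 4 calls, WT after-B 3 gave 5, and WT before-B 1 or any ROBO4_KO after-B library gave 6. Leaving out VLDLR_KO before-B 2 gave 16 calls, and in the knockouts alone there were 0 among 20 tested members (edgeR quasi-likelihood test), 4 of which had an unadjusted p under 0.05. Within ROBO4_KO the median was -3.17 with 18 of the 23 called lower, and within WT -2.07 with 5 called lower. Over all 11668 tested genes, 1020 and 839 were called lower within those genotypes. Within VLDLR_KO the median was 0.97, with 0 called lower and 1 higher (2936 and 2718 over all tested genes). The knockouts alone thus pool genotypes of unlike direction.

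Form differences within a genotype, which rest on separate libraries, were called for 1982 genes in ROBO4_KO (17.0%), 5654 in VLDLR_KO (48.5%) and 1790 in WT (15.3%), with 1 estimate of spread for all 6 groups. Fitted on the libraries of each genotype alone, the counts were 1821 in ROBO4_KO, 2172 in VLDLR_KO and 3124 in WT, so the order of the genotypes turned. In 782 genes the difference was called in all 3, and in 754 of these with the same sign. Across genes, the differences in ROBO4_KO and WT correlated at 0.77, those in ROBO4_KO and VLDLR_KO at 0.56 and those in VLDLR_KO and WT at 0.45 (11668 genes, which are not independent replicates). The interaction of form and genotype was called for 1268 genes (10.9%), 487 of them among the 4441 that differed overall. These counts moved with single libraries. Calls within VLDLR_KO numbered 3601 without its before-B library 3. Those within ROBO4_KO numbered 810 and 720 without its before-B libraries 1 and 2. Those within WT numbered 736 and 566 without its after-B libraries 1 and 3, and 1163 without its before-B library 3. Interaction calls ranged from 553 without WT after-B 3 to 5087 without VLDLR_KO before-B 2.

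Immediate-early and inflammatory genes often differed in their response by genotype. Of 24 tested immediate-early genes 11 were called higher and 1 lower, and 20 passed the interaction test (10.9% of all tested genes did). Fos, a subunit of AP-1, had 52.7, 54.4 and 56.1 CPM in ROBO4_KO, 41.8, 53.1 and 48.1 CPM in VLDLR_KO and 855 and 944 CPM in WT after-B libraries. In before-B libraries it had 27.9 and 36.1 CPM in ROBO4_KO, 18.9 and 12.5 CPM in VLDLR_KO, and 42.4, 35.9 and 32.2 CPM in WT. The WT after-B libraries alone were thus far above the rest. Zfp36, which encodes the mRNA-destabilising protein TTP, had 971 and 1018 CPM in WT after-B libraries and 67.3 to 131 CPM in the other 13. Its difference was 3.01 within WT, -0.28 within ROBO4_KO and -0.32 within VLDLR_KO (adjusted p of the interaction 2.2e-07). Cxcl2, a neutrophil chemoattractant, had 128 and 182 CPM in WT after-B libraries and 0.416 to 2.38 CPM elsewhere. Il1b, a pyrogenic cytokine, was 24.03 and 32.7 CPM in WT after-B libraries, while in the knockouts it was lower with the digit after B (-3.49 in both ROBO4_KO and VLDLR_KO, against 4.48 in WT). Nfkbia, the feedback inhibitor of NF-kB, differed by 2.70 within WT, -0.60 within ROBO4_KO and -1.30 within VLDLR_KO. Egr2 behaved otherwise, at 49.8, 106 and 156 CPM in after-B libraries, against 11.1, 14.7 and 21.6 CPM in before-B libraries, with a difference of 2.73 within ROBO4_KO and 2.70 within VLDLR_KO, close to the 2.81 over all genotypes (adjusted p of the interaction 0.86). Cxcr4, the CXCL12 receptor, fell most in VLDLR_KO (-3.55, against -1.51 in ROBO4_KO and -0.48 in WT). In the knockouts alone, immediate-early genes numbered 5 higher and 3 lower with a median of 0.16, and inflammatory mediators 3 higher and 10 lower of 22 with a median of -0.68 (5 higher and 6 lower of 23, median 0.22, with WT included).

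**Figure D5:**
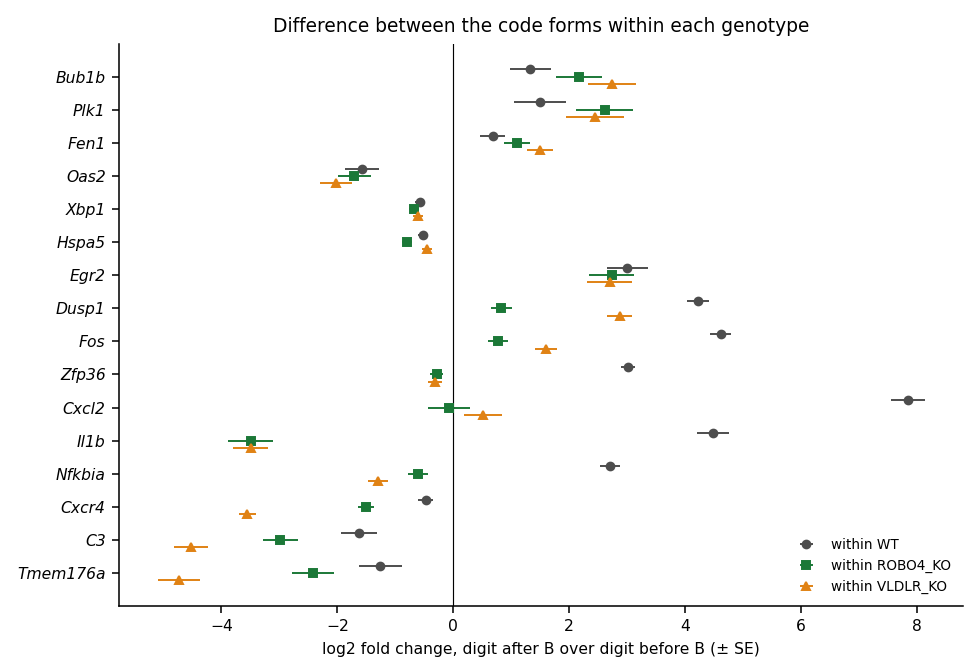
Log2 fold change between after-B and before-B libraries within each genotype for 16 named genes, with bars for 1 SE. Bub1b and Plk1 (mitotic), Fen1 (replication), Oas2 (interferon response), and Xbp1 and Hspa5 (unfolded protein response) each point one way in all 3 genotypes. Zfp36, Il1b and Nfkbia are positive within WT (3.01, 4.48 and 2.70) and negative within both knockouts.

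Ribosomal protein levels, and differences by transcript length, moved in part with VLDLR_KO before-B 3. Its ribosomal protein genes had the highest level of all libraries (0.84 on the centred log2 scale, the others -0.20 to 0.31), in a list where 13 of 81 were called lower in after-B libraries and none higher, with a median of -0.23. Without that library the median was -0.07, with 9 lower and 4 higher. In 5 equal classes of transcript length, the shortest (median 1035 bases) had a median difference of -0.11 and the longest (median 5888 bases) 0.08. Within VLDLR_KO these were -0.33 and 0.30, within WT -0.07 and 0.07, and within ROBO4_KO, the other way, 0.10 and -0.05. Without VLDLR_KO before-B 3 both were 0.01 over all genotypes, which pools genotypes of unlike direction. The part of transcript length in single results was not tested. Zfp genes, the zinc finger family, were lower more often than higher (90 and 16 of 314 tested, median -0.16), which remained so without VLDLR_KO before-B 3 (100 and 14).

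Of the genes that the study is about, Slc17a5, the lysosomal sialic acid exporter, was lower in after-B libraries, with 75.0, 86.3 and 102 CPM, against 95.4, 106 and 124 CPM in before-B libraries (-0.37, SE 0.06, adjusted p = 0.00024). Qk, which encodes the RNA-binding protein QKI, had 188, 276 and 304 CPM in after-B and 120.5, 238 and 285 CPM in before-B libraries and did not pass the test (0.24, adjusted p = 0.058), but was called under 6 of the 29 alternatives (adjusted p 0.032 to 0.425 over all of them). Vldlr had 1 to 11 counts in after-B and 2 to 38 counts in before-B libraries and did not pass the test (-1.05, adjusted p = 0.15), but was called without both VLDLR_KO before-B libraries (-1.64, adjusted p = 0.0417). Robo4, deleted in one of the knockouts, had 0 counts in 12 libraries and 1 to 4 in the other 3 and was not tested. The counts of these targeted genes check the genotype labels only weakly.

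At the level of transcripts, 2748 of 30096 tested differed between the forms (9.13%). The 24 genes of largest difference had 50 tested transcripts, of which 37 were called in the direction of the gene and none in the other, with at least 1 for each of the 24. These transcripts were counted in the same libraries in which the genes were chosen, so their direction is a description only. In the authors' deposited table, comparisons of the same forms within a genotype had q under 0.05 for 2425 genes in ROBO4_KO (15.6% of those with a q), 2940 in VLDLR_KO (19.2%) and 2904 in WT (18.4%). Of the 24 genes, 24, 22 and 24 had such a q in the authors' deposited table in ROBO4_KO, VLDLR_KO and WT, a description of the same libraries and not an independent check.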

How the data were processed

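Per the labels' protocols, total RNA of 15 macrophage cultures went through a SMARTER mRNA-Seq preparation and paired-end sequencing (BGISEQ-500). HISAT, Bowtie2 and the build GRCm38.p6 are listed in the submitters' processing notes. The quantifier is not given in the sources used here. The deposited tables hold read counts per gene and transcript, made by the authors and treated here as estimated counts (the expected counts of a quantifier), since only 92.6% were whole numbers, and FPKM by the authors, used here for library sums and to derive transcript length. The authors' averages, log2 fold changes and DESeq2 q-values (adjusted p-values) within genotypes are in the same deposited table, per the file headers, and entered no test here. Gene counts cover protein-coding genes only.

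Counts were rounded, filtered with filterByExpr by genotype, scaled by TMM and fitted with edgeR 4.0.16 in R 4.3.3 (quasi-likelihood F tests, two-sided, genotype and form of the code as terms). Calls are Benjamini-Hochberg adjusted p under 0.05. Form differences within genotypes and their interaction came from a model of 6 group means. Alternatives used DESeq2 1.42.0, limma 3.58.1, other scalings and filters, replicate blocks and omitted libraries. The fits were tested on simulated data. A test of transcript proportions failed that check and is not reported. SE is the size of a log2 fold change divided by the square root of F. With 1 to 3 counts in a form, ratios have exact intervals at the 95% level, and with 0 counts folds are bounds against 3 counts per library. Both cover counting error only.

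Libraries with the same digit were not taken as pairs. No libraries were duplicates (chi-square per degree of freedom between replicates 5.7 to 88.5).

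The comparison and the 50 gene lists were chosen with earlier results of these data known, and 2 of the lists (long noncoding and mitochondrially encoded RNA) had no gene in the tables. Lists are described by counts and medians and have no test. Genes were named by rule: the 12 largest differences in each direction among calls with at least 5 CPM on average in the higher form, no overlap between forms and an established symbol, up to 6 members of a list with the lowest p, Vldlr, Robo4, Qk and Slc17a5, and the 6 lowest interaction p. Genes beside the largest differences, and Csf3r, Hexa, Irf9, Mmp9, Nfatc1, Tubb5 and Txnrd1, were named after their values were seen, and Mcm7 and Cdc6 for their promoters.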

Additional observations from a re-analysis of the deposited data

Results flagged for a closer look

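Single libraries far from the others of their form came first. Among before-B libraries, VLDLR_KO 3 stood apart in the level of 3 lists, each being a mean log2 CPM of genes centred over the 15 libraries. Its level was -0.55 for cytoskeleton and adhesion genes (the others -0.26 to -0.06), 0.31 for proteasome genes (the others -0.11 to 0.06) and -0.14 for Zfp genes (the others 0.06 to 0.15). It also had 12.2 CPM of Cdkn2a, the others 2.75 to 6.73 CPM. Among after-B libraries, VLDLR_KO 2 had 51.1 CPM of Acp5 (the others 12.9 to 28.3) and 34.0 CPM of Siglecf (the others 11.9 to 22.1). Serpine2 reached 43.3 CPM in WT before-B 1, the other before-B libraries having 3.26 to 17.0 CPM. Of 128 groups of values examined, 7 held such a library, and about 6 are expected by chance at 1 in 20.

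The form difference also varied with genotype for 12 named genes (edgeR quasi-likelihood interaction test, adjusted p). For Zfp36 (adjusted p = 2.2e-07) it was -0.28 within ROBO4_KO, -0.32 within VLDLR_KO and 3.01 within WT. Il1b (adjusted p = 3.79e-07) differed by -3.49, -3.49 and 4.48 in the same order of genotypes, Cxcl2 (adjusted p = 1e-06) by -0.08, 0.51 and 7.84, and Nfkbia (adjusted p = 2.26e-06) by -0.60, -1.30 and 2.70. For Fos (adjusted p = 2.78e-06) the values were 0.77, 1.60 and 4.61, and for Cxcr4 (adjusted p = 3.56e-06) they were -1.51, -3.55 and -0.48. These 6 were chosen for the lowest interaction p of all genes.

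In 6 of the 24 genes with the largest overall difference, the size varied but the sign did not. Mmp8 (adjusted p = 0.0259) rose by 4.53 within ROBO4_KO, 2.87 within VLDLR_KO and 4.38 within WT, and Bst1 (adjusted p = 0.0461) by 3.27, 5.16 and 2.68 in that order. Clic5 (adjusted p = 0.0164) differed by -4.43, -2.43 and -4.12. C3 (adjusted p = 0.00262) differed by -2.98, -4.52 and -1.62, Apoc2 (adjusted p = 0.00855) by -2.26, -4.77 and -1.57, and Tmem176a (adjusted p = 0.00278) by -2.42, -4.73 and -1.26.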

How the results depend on the processing

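The 4441 calls ranged from 3911 to 4718 with a library left out (2191 higher, 1943 to 2357, and 2250 lower, 1956 to 2361), and every call shared with another setting had the same sign there. All settings reuse these libraries, so the shared sign is a description only. Deviations from group means of same-numbered libraries correlated at -0.143 to 0.076. With 2 or 3 libraries in a group such deviations are tied to one another, so these values cannot tell whether same-numbered libraries were pairs. A replicate block by genotype and digit gave 2790 calls, 1297 of them lower. Scaling to library totals gave 41.3% of calls as higher, against 49.3%. Leaving out a library gave 566 to 2624 calls within WT, 720 to 2887 within ROBO4_KO, 3601 to 7023 within VLDLR_KO and 553 to 5087 for the interaction. With the libraries of 1 genotype only, 3124 genes were called within WT and 2172 within VLDLR_KO. Of tested transcripts 9.13% were called, 1.9% with that block, 18.8% with a stricter filter, which tests fewer, 5.37% without both WT after-B libraries and 4.06% without the 3 libraries with almost no Y-linked reads. Leaving out those 3, and both VLDLR_KO before-B libraries, was chosen after seeing the data.

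Directions turned for few named genes. Without both WT after-B libraries and in the knockouts alone, Zfp36 was -0.3 and Nfkbia -0.96. With a library left out, Nfkbia ranged from -0.07 to 0.5. Il1b was 0.94 with limma-voom, 1.27 without a genotype term and 1.6 without both VLDLR_KO before-B libraries. Without those, Atp11a was -0.02 and Csf3r 0.18. With a library left out, Atp11a ranged from -0.01 to 0.17 and Proz from -0.02 to 0.1, and Proz was -0.05 without the 3 libraries. None of these 6 was called in the main analysis. Of 100 called genes that the text names, 94 kept direction and call under every alternative that tested them (27 to 29 of 29, the stricter filter or the knockouts alone leaving out Cdkn2a, Chil3, Cd38, Ngp and S100a9), and the call was lost at least once for the other 6 (Cxcl2, Cx3cr1, Ddit3, Atf4, Bgn and Nfatc1). In the knockouts alone, Cxcl2 was 0.22 (edgeR adjusted p = 0.573) and Bgn -2.07 (adjusted p = 0.0569). Calls were gained at least once for Qk, Vldlr, Zfp36, Il1b, Nfkbia and Csf3r, under 6, 1, 2, 3, 1 and 3 alternatives. The cause of these changes was not tested.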

Other observations

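Further gene lists were compared between after-B and before-B libraries. Each count below is to be read against 18.8% called higher and 19.3% called lower over all tested genes. Of 10 tested genes of alternative activation 7 were called higher and 1 lower, with a median log2 fold change of 0.96. Of 14 heat shock genes 5 were higher and 0 lower, with a median of 0.10. Within VLDLR_KO 7 of them were called higher (2718 of 11668 over all tested genes), and within WT 0 (951 of 11668). MHC class II genes numbered 4 higher and 1 lower of 7, and MHC class I and peptide loading genes 0 higher and 1 lower of 14. Of those 14, 12 were called lower within VLDLR_KO (2936 of 11668 over all tested genes). Their median was -0.70 there, against 0.03 within ROBO4_KO and 0.17 within WT. Among the 14, 8 passed the interaction test (10.9% of all tested genes did). Genes of resident macrophages numbered 4 higher and 6 lower of 15, and those of monocytes 4 higher and 2 lower of 13. Of 25 genes of glycolysis and hypoxia 6 were higher and 6 lower. Nuclear-encoded oxidative phosphorylation held 5 higher and 2 lower of 88, the proteasome 5 and 2 of 43, splicing factors 6 and 1 of 29, Rab GTPases 8 and 9 of 46, and the circadian clock 3 and 3 of 17.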
